A study of Mus musculus with 4 samples.

Results

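The 5 genes of the Ikaros family, Ikzf1 to Ikzf5, were followed in DN4 thymocytes with and without an inducible Cre that can delete Ikaros. They were picked by gene symbol from 19938 genes that the array names by exactly 1 symbol, and all 5 were measured. DN4 cells are the last thymocytes that carry neither CD4 nor CD8. All 4 mice were Ikf/f, with floxed alleles of Ikzf1, and were injected with tamoxifen each day for 4 days, at 50 mg/kg, with the cells taken 24 h after the last dose. The Cre+ group was Ikf/f Rosa26-CreERT2+ (mice 129 and 135). The Cre- group was Ikf/f without the recombinase (mice 131 and 137). The Rosa26 locus is active in most tissues and not only in thymocytes. The control mice had tamoxifen and no Cre, so the activity of Cre and the deletion of Ikaros cannot be told apart. The sources used here give no ages. The submitters reported that Ikaros protein was lost in sorted Cre+ cells by western blot.

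Ikaros family proteins are zinc-finger transcription factors. Zinc fingers near the N-terminus bind DNA, and a pair at the C-terminus joins the proteins into dimers with themselves and with each other. In lymphocytes Ikaros acts with the NuRD remodelling and deacetylase complex and with other corepressors, and it is needed for normal T and B cell development. Aiolos, encoded by Ikzf3, is best known from B cells and from thymocytes at the later double-positive stage. Helios, encoded by Ikzf2, is found in T cells and marks many regulatory T cells. Eos, encoded by Ikzf4, works with Foxp3 in regulatory T cells, and Pegasus, encoded by Ikzf5, is the most distant relative.

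The 4 arrays had medians between 6.85 and 6.88 on the log2 scale, and Pearson correlations between arrays ran from 0.994 to 0.997 across probe sets. With limma over all 35556 probe sets, 0 probe sets had an adjusted p under 0.05, while 2356 (6.63%) had an unadjusted p under 0.05. Limited to the 21789 probe sets with 1 gene symbol, limma called 266 (1.22%). That count was 138 without mouse 129 and 480 without mouse 131. Both forms of the test are given below, since they differ for Ikzf3.

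T lineage genes were bright in all 4 mice. All 15 measured T lineage markers had means above the median gene, among them Cd3e at 12.84 to 13.16, Thy1 at 13.12 to 13.23 and Bcl11b at 10.58 to 10.75. Cd44, a marker of the earliest thymocytes, lay between 5.90 and 6.40. Cd4 was at 7.26 to 7.94 and Cd8a at 8.07 to 9.12, while Cd8b1, the CD8 beta chain gene, was at 11.50 to 11.91. Il2ra, which encodes the CD25 surface marker whose absence defines DN4 cells, was at 10.71 to 11.58. Its signal was at or above that of 92.7% of genes. RNA of Il2ra and Cd8b1 was thus bright in cells labelled DN4.

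Signal rank differed widely among the members. Ikzf1 was the brightest, with a mean log2 value of 12.06 and rank 490 of 19938, at or above 97.5% of genes. Ikzf3 followed at 11.03 (rank 1511, 92.4%). Ikzf5 at 10.82 (rank 1876) and Ikzf2 at 10.81 (rank 1882) were next, and their values over the 4 mice overlapped. Ikzf4 was last at 7.35 (rank 9229, 53.7%), close to the median gene at 7.03. These are ranks of probe set signal. Probe sets differ in how well they bind, so the order is not one of transcript numbers.

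**Figure D1:**
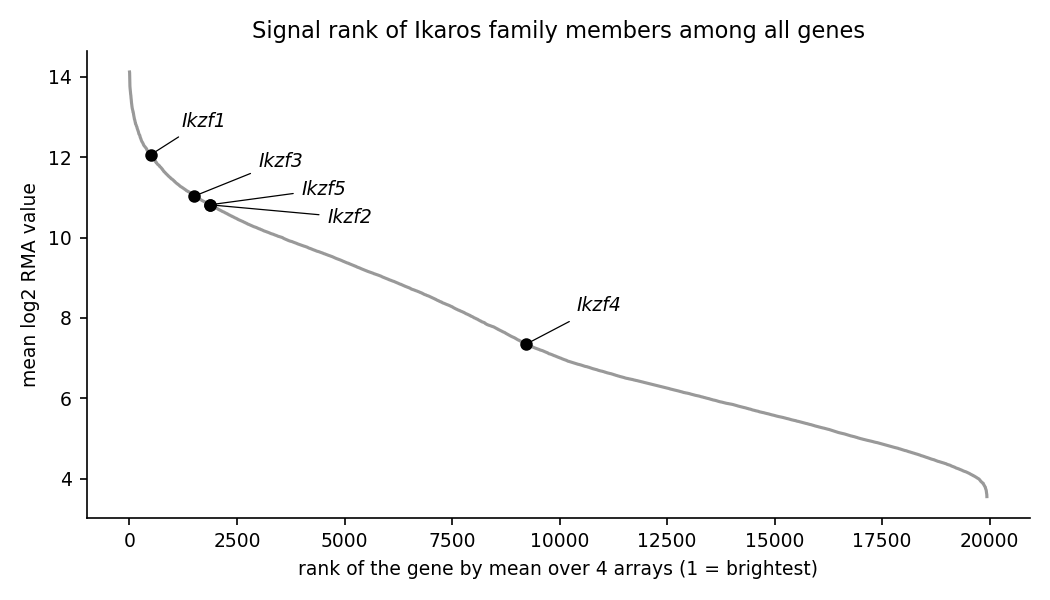
Mean log2 RMA value over 4 arrays (vertical axis) of 19938 genes in order of rank (horizontal axis, grey line), with the 5 Ikaros family members as black points. Ikzf1 sits at rank 490 and Ikzf3 at rank 1511, Ikzf5 and Ikzf2 coincide at ranks 1876 and 1882, and Ikzf4 lies at rank 9229.

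Within single arrays the rank of Ikzf1 moved little, from 458 in mouse 137 to 542 in mouse 135. The ranks of Ikzf2 (1788 to 2026) and Ikzf5 (1766 to 1941) overlapped between the groups, and Ikzf4 lay between ranks 8994 and 9660. Ikzf3 stood at rank 909 and 1014 in Cre+ mice 129 and 135, and at rank 2477 and 2107 in Cre- mice 131 and 137. It was thus the second brightest member in both Cre+ mice and the fourth in both Cre- mice.

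Ikzf1, the targeted gene, was compared first. Its log2 values were 12.06 and 11.99 in Cre+ mice 129 and 135 and 12.07 and 12.11 in Cre- mice 131 and 137. Both Cre+ values lay below both Cre- values, by a gap of 0.01 between the nearest mice. Such a separation is common here. The groups do not overlap in either direction for 36.4% of genes, and with Cre+ lower for 4052 of 19938 genes. The difference, Cre+ minus Cre-, was -0.07 (SE 0.04, 95% interval -0.17 to 0.04), with limma's adjusted p = 0.925 over all probe sets and 0.768 among those with 1 gene symbol. The interval allows an Ikzf1 signal in Cre+ cells of 0.890 to 1.02 times that in Cre- cells. Which exons the Ikzf1 probes cover, and whether the floxed ones are among them, was not analysed here. The signal is therefore no check of the labels, and it says nothing of the protein.

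Ikzf3 was 1.86-fold higher in Cre+ cells. It was at 11.53 and 11.44 in Cre+ mice 129 and 135, and at 10.46 and 10.71 in Cre- mice 131 and 137. The groups were separated by 0.73 between their nearest mice, while the Cre+ pair differed by 0.09 and the Cre- pair by 0.24. Each Cre+ mouse exceeded each Cre- mouse, by 0.73 to 1.06. For 16.1% of genes both Cre+ values lay above both Cre- values, by any amount. The difference was 0.90 (SE 0.09, 95% interval 0.66 to 1.14), which corresponds to 1.58-fold to 2.20-fold. Among all genes this was the 80th largest rise and the 45th smallest limma p.

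The call for Ikzf3 depended on which probe sets were tested. Over all 35556 probe sets limma gave an adjusted p = 0.123, and among probe sets with 1 gene symbol an adjusted p = 0.00184. Probe sets outside the second set had a larger median standard error, 0.106 against 0.0922. The prior degrees of freedom, which set how far limma trusts the pooled spread, were 2.99 in the first test and 6.12 in the second. Leaving out probe sets under the median signal also brought Ikzf3 past the threshold (adjusted p = 0.0303). The difference itself lay between 0.90 and 0.91 after array centring, quantile and loess normalization, and between 0.78 and 1.02 without single mice. Filters and variance models leave the values as they are, so they cannot move it. Fits without single mice leave 1 mouse in a group, so their p-values do not measure agreement between mice.

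**Figure D2:**
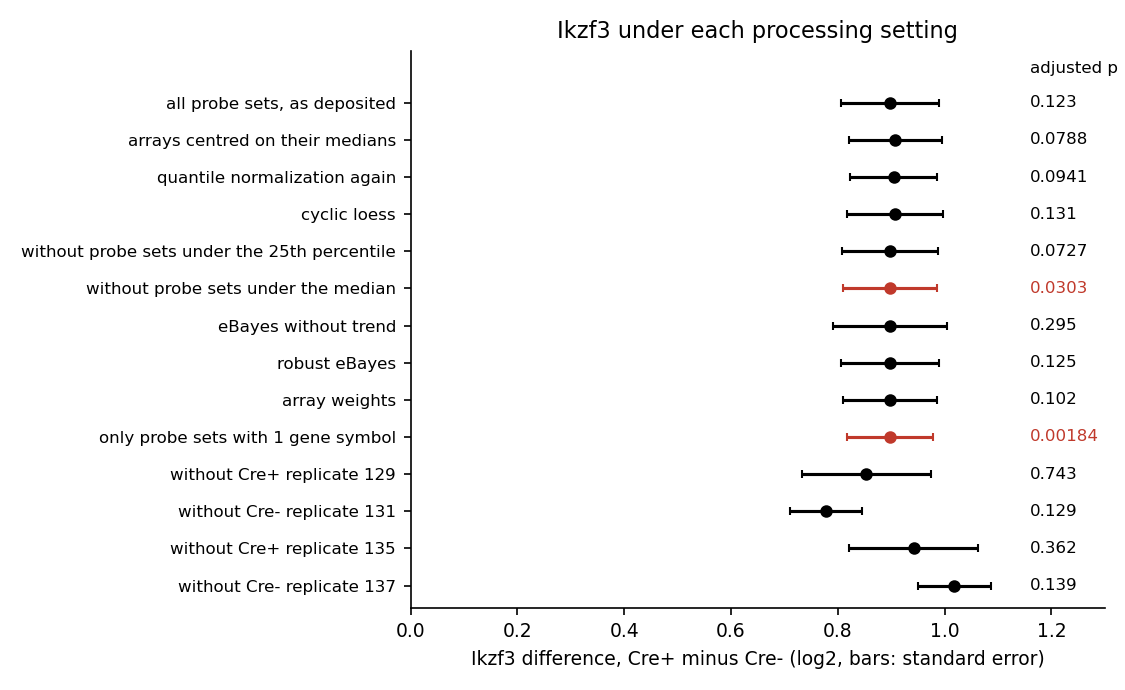
Ikzf3 difference, Cre+ minus Cre- on the log2 scale (horizontal axis), under each processing setting (rows), with bars of 1 standard error and limma's adjusted p at the right, red where under 0.05. The point stays between 0.78 and 1.02 in every row, and filters and variance models cannot move it. With all 4 mice the adjusted p runs from 0.00184 to 0.295.

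Ikzf2 was at 10.85 and 10.82 in Cre+ mice 129 and 135 and at 10.72 and 10.87 in Cre- mice 131 and 137. The Cre+ values lay between the Cre- values. The difference of 0.04 (SE 0.07, 95% interval -0.13 to 0.21) did not pass either test, with limma's adjusted p = 0.986 among probe sets with 1 gene symbol. Its sign turned without mouse 131 (-0.03).

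Ikzf4 was at 7.51 and 7.41 in Cre+ mice 129 and 135 and at 7.37 and 7.12 in Cre- mice 131 and 137. Both Cre+ values were above both Cre- values, by 0.04 between the nearest mice, as was the case for 16.1% of genes. The difference was 0.22 (SE 0.13, 95% interval -0.11 to 0.54), and limma gave an adjusted p of 0.921 with all probe sets and of 0.684 with those of 1 gene symbol. It was 0.34 without mouse 131 and 0.09 without mouse 137. This interval is the widest of the 5 and includes a 1.45-fold higher signal.

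Ikzf5 was the only member with several probe sets, 2 in number. The brighter one was at 10.87 and 10.79 in Cre+ mice 129 and 135 and at 10.78 and 10.83 in Cre- mice 131 and 137. Its groups overlapped, with a difference of 0.02 (SE 0.05, 95% interval -0.12 to 0.16; limma's adjusted p = 0.999 among probe sets with 1 gene symbol). The sign turned without mouse 129 (-0.02) and without mouse 131 (-0.0027). The dimmer probe set, with a mean of 9.26, gave 0.02 (SE 0.12).

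**Figure D3:**
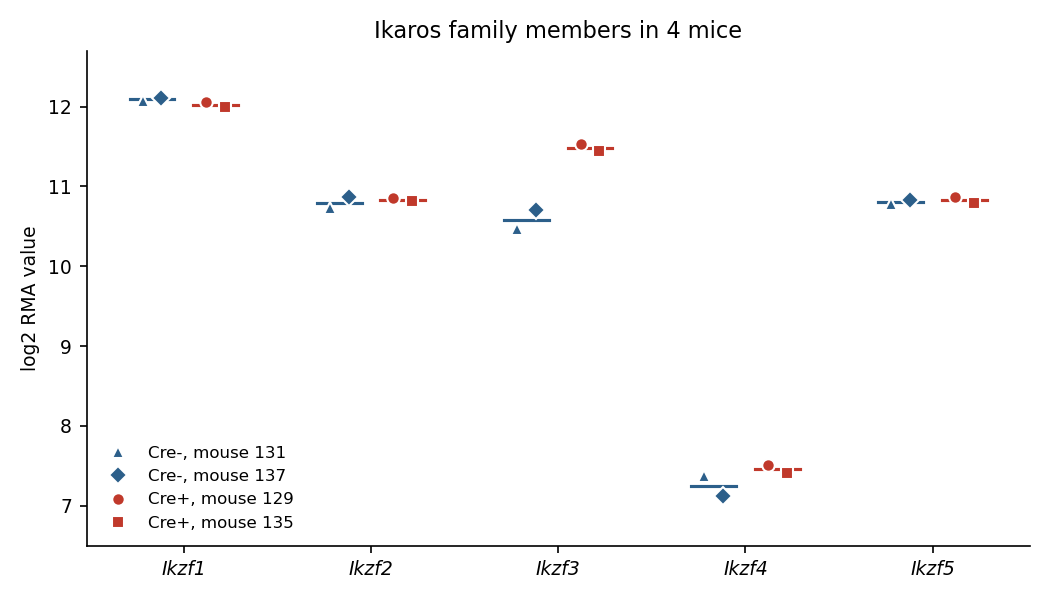
Log2 RMA value (vertical axis) of each Ikaros family member (horizontal axis) in 2 Cre- mice (blue) and 2 Cre+ mice (red), with 1 point per mouse and a line at each group's mean. Ikzf3 separates the groups by 0.73, at 10.46 and 10.71 against 11.44 and 11.53. Ikzf1 and Ikzf4 separate them by only 0.01 (Cre+ lower) and 0.04 (Cre+ higher). The values of each member other than Ikzf3 span at most 0.39 over all 4 mice.

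Among the family, 1 of 5 members passed in the test of probe sets with 1 gene symbol, against 1.25% of all genes. Over all probe sets 0 of 5 passed, with 1 of 5 at an unadjusted p under 0.05 against 6.86% of all genes. By direction, 0.953% of genes were called higher. The median difference of the 5 members was 0.04, beside -0.01 over all genes. Since the family was chosen with earlier results of these data known, these shares are given as a description.

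**Figure D4:**
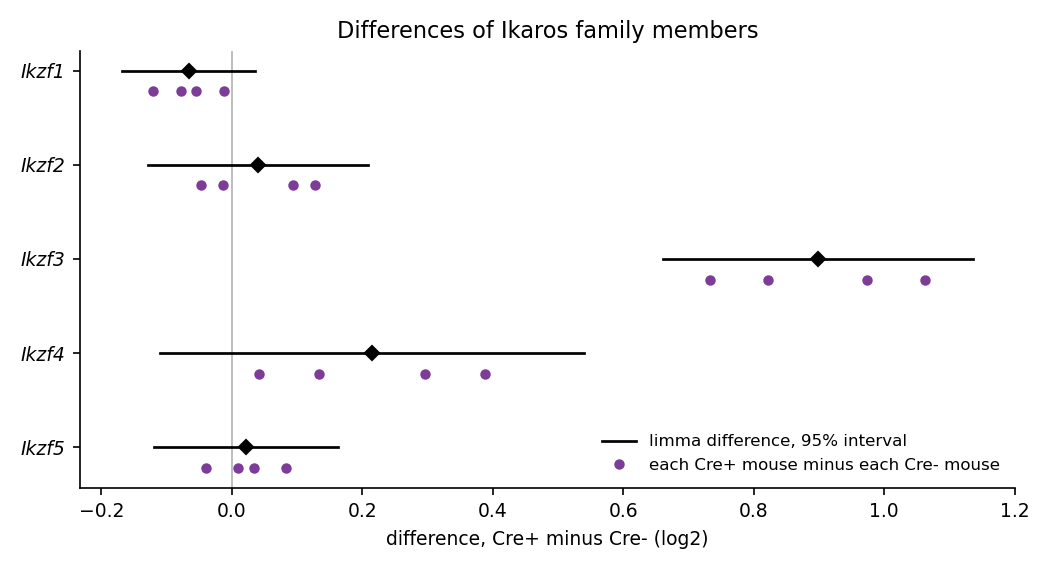
Difference of each family member, Cre+ minus Cre- on the log2 scale (horizontal axis), as limma's estimate with its 95% interval (black) and as the 4 differences of single mice (purple). Ikzf3 lies at 0.90 with an interval of 0.66 to 1.14, and the intervals of the other 4 members include 0.

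The change of Ikzf3 was set against that of each other member within each array, which removes any shift shared by a whole array. Ikzf3 minus Ikzf1 was -0.53 and -0.55 in Cre+ mice 129 and 135 and -1.61 and -1.41 in Cre- mice 131 and 137, a shift of 0.96. Ikzf3 minus Ikzf2 was 0.68 and 0.62 in the Cre+ mice and -0.26 and -0.16 in the Cre- mice, so its sign turned between the groups (shift 0.86). The same held for Ikzf3 minus Ikzf5, at 0.66 and 0.65 against -0.32 and -0.13 (shift 0.88). Ikzf3 minus Ikzf4 was 4.02 in both Cre+ mice and 3.09 and 3.59 in the Cre- mice (shift 0.68, or 0.44 without mouse 131). The groups did not overlap in any of the 4 comparisons. All 4 share the Ikzf3 values, whose groups lay 0.73 apart, so they are not 4 separate results. Among single genes the groups do not overlap for 36.4%. The exact two-sided permutation test gave p = 0.333 for each of the 4, the smallest that 2 against 2 mice allow.

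The genes whose values over the 4 arrays were most like those of Ikzf3 were found by the root mean square distance between values centred on each gene's own mean. The 6 nearest were Arpin, an inhibitor of the Arp2/3 actin nucleator (distance 0.05), Syde1 (0.05), Vcl, which encodes the adhesion protein vinculin (0.06), and the beta-secretase gene Bace1 (0.06). Gm10384 (0.07) and the tetraspanin gene Cd81 (0.07) completed them, and the median distance over all genes was 0.47. Vcl was at 9.27 and 9.20 in mice 129 and 135 (Cre+) and at 8.34 and 8.42 in Cre- mice 131 and 137. Cd81 was at 11.39 and 11.38 in the former and at 10.51 and 10.74 in the latter. Likeness to Ikzf3 is mostly a like difference between the groups, and the 6 differences ran from 0.76 for Cd81 to 0.91 for Arpin. With the largest deviation as the measure, 5 of the 6 were again among the nearest.

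Ikaros and Aiolos act through partner complexes, and the genes of these complexes were measured beside the family. Of 14 genes of the NuRD complex, 0 passed in either form of the limma test, where 1.25% of all genes passed among probe sets with 1 gene symbol. In the complex 2 had lower values at an unadjusted p under 0.05, as did 2.74% of all genes. Mta3, a NuRD subunit, was at 11.86 and 11.94 in Cre+ mice 129 and 135 and at 12.09 and 12.12 in Cre- mice 131 and 137 (difference -0.20, SE 0.04). Chd3, a NuRD helicase gene, differed by -0.25 (SE 0.07). The median over the complex was -0.02, and its genes were bright, with a median level of 11.84.

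The other complexes gave no call either. Among probe sets with 1 gene symbol 1.25% of all genes were called, and lists of this size cannot tell 0 calls from that share. In the Sin3 and CtBP corepressor list 0 of 11 genes passed in either form of the limma test (median -0.01). In that list 0 had an unadjusted p under 0.05, against 6.86% of all genes. Sin3b differed by -0.18 and Sap18 by -0.23. In the SWI/SNF remodelling complex 0 of 14 passed in limma, and 2 were higher at an unadjusted p under 0.05, as were 4.12% of all genes (median 0.01), with Dpf2 at 0.12 and Smarcd2 at 0.16. In Polycomb repressive complex 2, which methylates histone H3 at silenced genes, 0 of 11 passed in limma (median 0.01). There 0 reached an unadjusted p under 0.05, against the same 6.86% of all genes. Its genes Mtf2 and Suz12 differed by -0.13 and -0.06.

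Proteins that modify Ikaros or mark it for degradation include casein kinase 2, protein phosphatase 1 and the cereblon ubiquitin ligase. Of 15 measured genes of this list 0 passed in either form of the limma test, where 1.25% of all genes passed among probe sets with 1 gene symbol. In the list 1 was higher at an unadjusted p under 0.05 (median 0.01), against the same 4.12% of all genes. That gene was Crbn, which encodes cereblon, in human cells the receptor through which lenalidomide brings about degradation of Ikaros and Aiolos. Crbn was at 10.51 and 10.47 in Cre+ mice 129 and 135 and at 10.33 and 10.36 in Cre- mice 131 and 137, a difference of 0.15 (SE 0.05). The kinase gene Syk differed by 0.19 (SE 0.09). Casein kinase 2 genes Csnk2a1 and Csnk2a2 both differed by -0.03.

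A list of 26 genes described as regulated by Ikaros or Aiolos in lymphocytes was measured as well. In the limma test of probe sets with 1 gene symbol 5 of 26 passed, each higher in Cre+ cells, and 0 as lower, against 0.953% of all genes called higher, and 0 passed over all probe sets. The median of the list was 0.06, and 18 of 26 means were higher. Members of this list had been seen to differ in these data when it was drawn up, so that its count supports no direction. Igll1, the surrogate light chain gene of the pre-B receptor, was at 8.11 and 7.94 in Cre+ mice 129 and 135 and at 6.68 and 6.62 in Cre- mice 131 and 137 (difference 1.38, SE 0.11). Hes1, a repressor induced by Notch, differed by 0.91 (SE 0.05), Cd3d by 0.66 (SE 0.08), the recombinase gene Rag1 by 0.38 (SE 0.08) and the terminal transferase gene Dntt by 0.21 (SE 0.03).

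Other members of that list did not pass, and several lay on the other side of 0. Cd8a, for example, was at 8.07 and 8.59 in Cre+ mice 129 and 135 and at 8.77 and 9.12 in Cre- mice 131 and 137 (difference -0.61, SE 0.21). Cd4 differed by 0.54 (SE 0.11) and the pre-TCR alpha chain gene Ptcra by 0.33 (SE 0.07). Vpreb1, the partner of Igll1 in the surrogate light chain, differed by 0.01 (SE 0.15). Il2 and Il10, cytokine genes repressed or activated by Ikaros in mature T cells, were dim at 5.06 to 5.15 and 4.80 to 4.99.

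**Figure D5:**
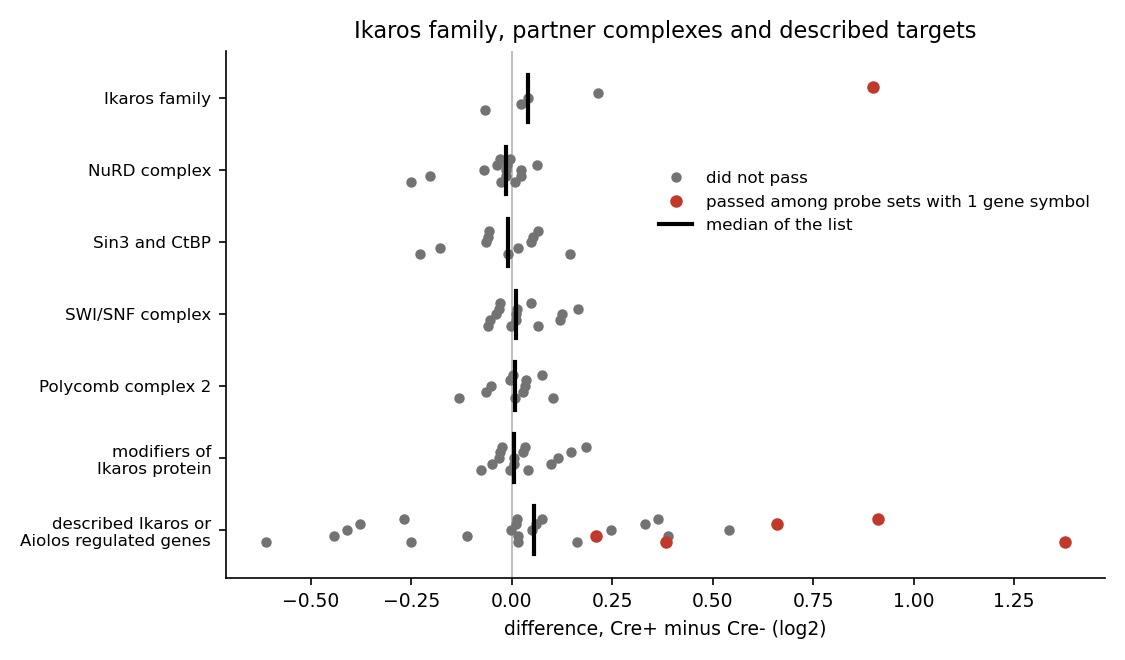
Difference of each gene, Cre+ minus Cre- on the log2 scale (horizontal axis), in the Ikaros family, 4 partner complexes, the modifiers of Ikaros protein and the described targets (rows), with a bar at each median. Red points passed limma among probe sets with 1 gene symbol, 1 in the family and 5 among the described targets.

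Ikzf3 is also expressed by B cells and by double-positive thymocytes, and markers of these cells were measured beside it. In bulk samples a different number of cells of a type and a different amount of RNA per cell cannot be told apart. Of 14 measured B lineage genes 4 had higher and 10 lower means in Cre+ cells. The markers Cd79a, Ms4a1, Ebf1 and Pax5 were dim in every mouse, with values of 4.74 to 5.29, 4.76 to 5.77, 5.04 to 5.46 and 6.42 to 6.69. None of these 4 passed in the limma tests. Cd79b, another chain gene of the B cell receptor, was brighter at 9.96 to 10.34 and differed by 0.25 (SE 0.09) without passing. Igll1 (higher) and Blk, a Src family kinase gene (lower, -0.51, SE 0.09), passed among probe sets with 1 gene symbol. Of all genes 0.953% were called higher there and 0.296% lower. The summed level of the list, as log2 of the sum of linear values, was 11.12 to 11.23 in Cre+ mice and 11.02 to 11.03 in Cre- mice. Such a sum mostly follows the brightest gene, here Cd79b. Cd79b was at 10.34 and 10.15 in Cre+ mice 129 and 135 and at 10.04 and 9.96 in Cre- mice 131 and 137. The sum is therefore no measure of B lineage genes as a group, of which 10 of 14 had lower means.

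Of 12 measured genes of the double-positive and mature stages 5 had higher and 7 lower means in Cre+ cells. The summed level was 13.45 to 13.52 in Cre+ mice and 13.51 to 13.61 in Cre- mice. It mostly follows the brightest genes, Cd8b1 and Rag1, which differed by -0.27 and 0.38. Rag1 passed as higher and the chemokine receptor gene Ccr9 as lower (-0.64, SE 0.08) in the limma test of probe sets with 1 gene symbol. In that test 0.953% of all genes were called higher and 0.296% lower. The part of B lineage or of double-positive cells in the Ikzf3 difference was not tested.

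Ikzf2 and Ikzf4 are read in regulatory T cells, and the defining factor of these cells, Foxp3, was dim at 6.23 to 6.44 in all 4 mice. The list of 10 regulatory T cell genes, which itself holds Ikzf2, had a summed level of 12.59 to 12.72 in Cre+ mice and 12.64 to 12.85 in Cre- mice. By mean its brightest genes were Il2ra and Ikzf2, which weigh most in that sum. Il2ra was at 11.07 and 10.71 in Cre+ mice 129 and 135 and at 11.58 and 10.96 in Cre- mice 131 and 137. Gpr83, a G protein-coupled receptor gene, passed limma as higher among probe sets with 1 gene symbol (1.27, SE 0.10), as did 0.953% of all genes. Ctla4, an inhibitory receptor gene, differed by -0.51 (SE 0.13) without passing.

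The remaining marker lists were compared in the same way, and their calls stand beside 0.953% of all genes called higher and 0.296% called lower in the limma test of probe sets with 1 gene symbol. Myeloid and dendritic genes (15 measured) held 1 call in the limma test of probe sets with 1 gene symbol, the lysozyme gene Lyz2 (1.04, SE 0.18). Of the 15 genes 4 had means above the median gene, among them H2-Ab1 (8.31 to 9.07) and Cd74 (7.02 to 8.28). Csf1r lay at 5.52 to 5.63 and Adgre1 at 4.76 to 4.87. H2-Aa was at 7.73 in Cre- mouse 137 and at 6.51 to 6.67 in the other mice. Natural killer and cytotoxic genes (13 measured) held 1 call, Nkg7 (difference -1.04, SE 0.09, values 8.88 to 10.03). Gzma differed by -0.19 and was bright at 12.25 to 12.48, while Ncr1 lay at 4.74 to 4.77. Of the 13 genes 3 had means above the median gene. Gamma delta T cell genes (7 measured) held only Blk as a call, and Cd163l1 differed by -0.21. Thymic epithelial genes (11 measured, with Cldn4 at 0.44 and Epcam at -0.48) and erythroid genes (5 measured, with Gata1 at -0.13 and Epb42 at -0.10) held 0 calls in either limma test. These 2 lists held 2 and 0 genes at an unadjusted p under 0.05, against 6.86% of all genes. The T lineage list (15 measured) held 3 calls, all higher, which were Cd3d (0.66), Cd3g (0.37) and Cd3e (0.25) of the CD3 complex, with a median of 0.06. Of its 15 means 11 were higher and 4 lower in Cre+ cells. Cd247, another chain gene of that complex, differed by -0.10 and Cd2 by -0.52, both without passing. Genes of the DN2 and DN3 stages (14 measured) held Hes1 and Dntt as calls, with a median of -0.01.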

How the data were processed

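RNA of sorted DN4 cells was labelled in a 2-cycle assay and hybridised to Affymetrix mouse gene arrays, 1 per mouse, per the labels' protocols. The deposited log2 values were made by the authors with RMA, per the submitters' processing notes. For its version, for filters and for a build, nothing is given in the sources used here. The log2 scale was read from the values (3.14 to 14.4), and signal over background was not analysed. Groups came from the titles and design text, since the treatment text names CreERT2 for all samples. The stated amounts of input RNA are not tied to mice. Precision is limited by having 2 arrays per group.

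Of 35556 probe sets, 21789 had 1 gene symbol, 1621 several and 12146 none listed. For genes with several, the probe set with the highest mean was used. Of the symbols, 21698 were found in a RefSeq gene table by gene number. No sample columns were left unused.

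All probe sets were fitted with limma 3.58.1 in R 4.3.3 (lmFit, eBayes with trend), with Benjamini-Hochberg adjustment over all of them and a threshold of 0.05. The test limited to probe sets with 1 symbol was an alternative. The code was tested on simulated data. Other alternatives were array centring, quantile and loess normalization, dim filters, variance models, array weights and leaving out each mouse.

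The members, 16 gene lists (203 genes, 183 measured) and tests were chosen with earlier results of these data known. Named were the members, the 6 genes nearest to Ikzf3, the 2 smallest p-values and all calls of each list, and defining markers. Others were named after their values were seen, namely Csnk2a1, Csnk2a2, Ptcra, Vpreb1, Il2, Il10, Cd79a, Ms4a1, Ebf1, Pax5, Cd79b, Foxp3, Csf1r, Adgre1, H2-Ab1, Cd74, Ncr1, Cd8b1, Cd247 and Cd2.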

Additional observations from a re-analysis of the deposited data

How the results depend on the processing

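The differences of Ikzf1, Ikzf3 and Ikzf4 kept their direction under all alternatives run, though filters and variance models cannot change a difference. Without single mice they ranged from -0.10 to -0.03, from 0.78 to 1.02 and from 0.09 to 0.34. Those of Ikzf2 and Ikzf5 turned sign without single mice (ranges -0.030 to 0.11 and -0.015 to 0.059). Ikzf3 (0.90) passed without probe sets under the median (adjusted p = 0.0303, limma) and among probe sets with 1 gene symbol (0.00184), and in no other setting over all probe sets. In the latter test it also passed with all 4 mice under 4 further settings, which were added after the data were seen (limma's adjusted p = 0.000506 to 0.0331). A fit without a single mouse leaves 1 mouse in a group, so its p-value does not measure agreement between mice. The count over all probe sets, 0 as deposited, was 10 after centring, 25 without probe sets under the 25th percentile, 80 without those under the median and 266 among those with 1 gene symbol. The latter count was 130 without trend and 138 to 480 without single mice. The shift of Ikzf3 against other members ranged from 0.44 to 1.06 without single mice. The median of the genes described as regulated by Ikaros or Aiolos ranged from 0.03 to 0.13 without single mice. The rank of Ikzf5 fell to 83.2% of genes with the mean of its probe sets. No paired analysis was run, because the sample labels state no pairing of Cre+ with Cre- mice.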
